A study of Mus musculus with 12 samples.

Results

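The genotype effect that NK1.1- and NK1.1+ thymic *i*NKT cells had in common when miR-155 was overexpressed was measured by RNA-seq. Its members were the genes whose raw counts differed between 6 miR-155KI and 6 WT libraries in 1 additive test, with the NK1.1 pool as a blocking factor, and whose fold change had the same sign in both pools. They numbered 464 of 14401 genes tested, which is 3.22% of them, with 219 higher (1.52%) and 245 lower (1.7%) in miR-155KI cells. That test takes the 12 libraries as independent. Deviations of same-numbered libraries of a genotype correlated between 0.061 and 0.293 across the pools, and with such libraries summed, 3 sums against 3, edgeR called 119 genes, 97 of them among the 464. With the same numbers as a correlated block (duplicateCorrelation), 299 genes were called, 267 of them among the 464. All libraries came from *i*NKT cells sorted by flow cytometry from the thymus of C57BL/6J mice at 7 weeks of age. There were 4 groups of 3 libraries, since each genotype, WT or miR-155KI, was sorted into an NK1.1- and an NK1.1+ pool. In miR-155KI mice, CD4Cre switched on a miR-155 cassette placed in both copies of the Rosa26 locus, so the whole T lineage that passes through CD4 expression carried it, and per the study's methods the WT mice were littermates with the knock-in allele but without CD4Cre. Cre and extra miR-155 therefore differed together and cannot be told apart. The labels do not tie a library to a mouse, so a p-value here reflects how libraries vary, which may be technical in part.

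A microRNA is a short RNA that guides the Argonaute complex to messenger RNAs, mostly through pairing of its seed, bases 2 to 8, with the 3′ UTR, and lowers their stability and translation. miR-155 is processed from the non-coding transcript of *Mir155hg* and is known in lymphocytes for restraining brakes on activation, among them the phosphatase SHIP1 (*Inpp5d*) and the repressor BACH1. Invariant NKT cells are T cells with a semi-invariant receptor for lipids shown by CD1d. In the thymus they pass from immature NK1.1- cells, which include the *i*NKT2 and *i*NKT17 subsets, to NK1.1+ cells that are mostly *i*NKT1 and carry NK receptors.

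The mature miR-155-5p is shown because its seed, in capitals, defines the sites looked for in the shared genes. RefSeq places it at chr16:84714143-84714165 on the plus strand of GRCm38.p6. The 30-base windows below it come from the 3′ UTRs of 9 shared genes that were lower in miR-155KI cells. They are 8 of the genes with the smallest p that hold a match and, for its 2 windows, *Jarid2*. *Lpin1* (log2 fold change -0.84, edgeR adjusted p = 0.0114) holds a match and had a smaller p than *Wdr45b* and *Tomm20*, but is not shown. Capitals in the windows mark the 8 bases that pair with bases 2 to 8 of miR-155-5p and end in an A opposite base 1. Annotation and sequence are GENCODE M21 on GRCm38, read 5′ to 3′ on the gene's strand. The windows lie at chr14:40907394-40907423 (*Tspan14*), chr7:67234134-67234163 (*Mef2a*), chr16:8660701-8660730 (*Carhsp1*), chr5:63909068-63909097 (*Rell1*), chr10:7906680-7906709 (*Tab2*), chr2:75675795-75675824 (*Nfe2l2*), chr11:121328075-121328104 (*Wdr45b*) and chr8:126934571-126934600 (*Tomm20*), all on the minus strand, and at chr13:44920082-44920111 and chr13:44920855-44920884 (*Jarid2*) on the plus strand.
miR-155-5p: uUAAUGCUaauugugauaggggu
Tspan14: cgtttctccatAGCATTAAgccctactgag
Mef2a: tagaaatatagAGCATTAAcaaaataaaat
Carhsp1: actgtctgaaaAGCATTAAaagcatttgaa
Rell1: ttaaaaataaaAGCATTAAaccagtgtgct
Tab2: ataaggtagaaAGCATTAAtgaaatgaaac
Nfe2l2: aaactttacaaAGCATTAAagtctcaatgt
Wdr45b: cctgtgatgctAGCATTAAtggcaccacca
Tomm20: tgtgaaaactgAGCATTAAaaccttacaga
Jarid2, first window: gattttgttttAGCATTAAactgttcaagt
Jarid2, second window: tccctcacatcAGCATTAAtctttgtttcc

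Total counts ran from 12819476 to 20518257 per library. Levels are given as CPM, the counts of a gene relative to the scaled library total, after TMM scaling, and log2 fold changes as miR-155KI over WT from edgeR. The T cell receptor and signaling genes that define the cells were present throughout, with 12 T cell identity genes summing to between 7554 and 10320 CPM. Some libraries stood apart. The log2 ratio of Y-linked transcripts to *Xist* lay between 2.34 and 4.66 in the 6 miR-155KI libraries and at 3.61 and 4.17 in WT replicate 1 of the 2 pools, but between -3.56 and -3.04 in WT replicates 2 and 3. The genotypes were thus unequal in this ratio, so list medians and many of the fold changes below are also given against WT replicate 1 alone. In miR-155KI NK1.1+ cells, 16 macrophage and dendritic cell markers summed to between 353.6 and 1027 CPM, against 137.2 to 275.3 CPM in the other 9 libraries. Their part in the results was not tested. In bulk RNA, fewer cells of a type and less RNA per cell cannot be told apart.

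*Mir155hg*, the host transcript of miR-155 (chr16:84703167-84715245, plus strand), separated the genotypes in all libraries. It measured 13, 13.7 and 9.65 CPM in WT NK1.1- cells, 144, 137 and 132 CPM in miR-155KI NK1.1- cells, 12.1, 11.7 and 11.2 CPM in WT NK1.1+ cells, and 116, 128 and 95.2 CPM in miR-155KI NK1.1+ cells. The 6 miR-155KI values lay far above the 6 WT values and were similar in the pools. The log2 fold change was 3.39 (SE 0.12, edgeR's quasi-likelihood test with Benjamini-Hochberg adjustment, adjusted p = 1.2e-11), with 3.51 for the NK1.1- and 3.28 for the NK1.1+ pool. Gene counts do not show whether the reads came from the cassette or from the endogenous locus, and mature miR-155 was not measured in these libraries.

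The shared changes were moderate. Among the 219 higher genes the median log2 fold change was 0.67, with 0.65 for the NK1.1- and 0.63 for the NK1.1+ pool, and 46 exceeded a 2-fold change. Among the 245 lower genes it was -0.77, with -0.81 and -0.74 in the 2 pools, and 80 exceeded a 2-fold change. Over all 14401 genes the median was 0.02. Every one of the 464 genes called in the additive test had the same sign in both pools. For 226 genes the NK1.1- pool had the larger change, and for 238 the NK1.1+ pool. For 290 of the 464, the 3 miR-155KI and 3 WT libraries did not overlap in either pool, a pattern seen in 564 genes (3.92%) of all tested. The 290 were 152 higher and 138 lower genes, beside 2.01% and 1.91% of all tested in those directions. The pools taken singly, with 3 libraries a genotype, gave fewer calls: 81 of the 464 passed within NK1.1- cells, where 0.965% of all genes did, 39 within NK1.1+ cells, where 0.417% did, and 17 within both. At an unadjusted p under 0.05, 368 of the 464 passed within both pools. The share of all genes tested that passed within both pools was not counted, with or without adjustment. The 17 and the 368 thus have no background beside them. The tests within a pool reuse the libraries by which the 464 were chosen, so passing within a pool is not separate support. A difference between the pools in the size of the effect was called for 0 of the 464 by edgeR's interaction test after adjustment, against 0.0278% of all genes tested, and 44 of them (9.48%) had an unadjusted interaction p under 0.05, against 8.1% of all genes tested. The additive test favours genes whose effects are alike in the pools. Neither the like signs nor the 0 interaction calls are therefore separate support for a shared effect. The plot of fold change in one pool against the other shows the 464 genes in the upper right and lower left quadrants.

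**Figure D1:**
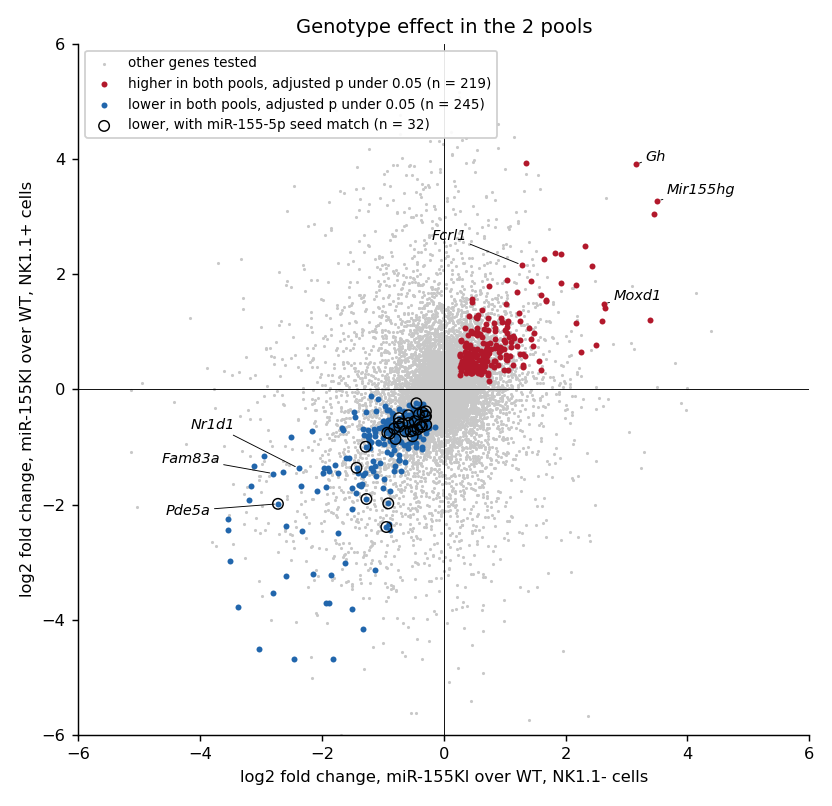
Log2 fold change of miR-155KI over WT in NK1.1- cells (x axis) and in NK1.1+ cells (y axis), 1 point per gene, from edgeR's fit with 4 groups. The 219 shared higher genes lie in the upper right and the 245 shared lower genes in the lower left, the sign being part of how they were chosen. Open circles mark the 32 lower genes with a miR-155-5p seed match, and 20 other genes lie beyond the axes.

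The choice of WT libraries bore on the lower genes more than on the higher ones. Against WT replicate 1 of each pool alone, edgeR called 2 genes, *Mir155hg* among them, and with the Y to *Xist* ratio as a covariate it called 8, among them *Mir155hg*, *Chad*, *Igsf23*, *Ntrk3*, *2010107E04Rik*, *Gm26753* and *RP24-94F12.3*. Leaving out WT replicate 1 from both pools gave 1122 calls, leaving out WT replicate 2 gave 28, leaving out WT replicate 3 gave 52, and leaving out miR-155KI replicate 1, 2 or 3 from both pools gave 119, 304 and 150. The WT replicate 1 fit keeps only 1 WT library per pool, and the Y to *Xist* ratio runs largely with genotype. Fewer calls in these 2 fits may thus reflect less information as well as the choice of WT libraries, which was not tested. WT NK1.1- replicate 1 also held 900.1 CPM of summed B cell markers, against 94.53 to 337.5 CPM in the other libraries. Directions held more widely than calls, but the shared genes were chosen for their sign with the same libraries. Their kept sign is therefore not independent support. Against WT replicate 1 alone, 217 of the 219 higher genes kept their sign in both pools, with a median log2 fold change of 0.53. Of the 239 lower genes tested, 219 kept it, with a median of -0.39. Genes tested that have a 3′ UTR were also counted, whether or not their pools shared a sign. Of these, 209 of 440 with an 8-base seed match and 5159 of 11907 without one had the sign of their additive fold change in both pools of that contrast. They were not chosen for a shared sign, so these counts are not a like baseline for the shared genes. In 92 of those 239 lower genes, and in 16 of the 219 higher ones, the fold change against WT replicate 1 was under 50% of the value against all WT libraries on the log2 scale. WT replicate 1 was the lowest of the WT libraries in both pools for 155 of the 245 lower genes (63.3%), against 19.8% of all genes tested. It was the highest in both pools for 89 of the 219 higher genes (40.6%), against 20.1% of all genes tested. The part of the Y to *Xist* difference in these values was not tested. Values against WT replicate 1 alone, called the WT replicate 1 contrast, accompany most genes described next.

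**Figure D2:**
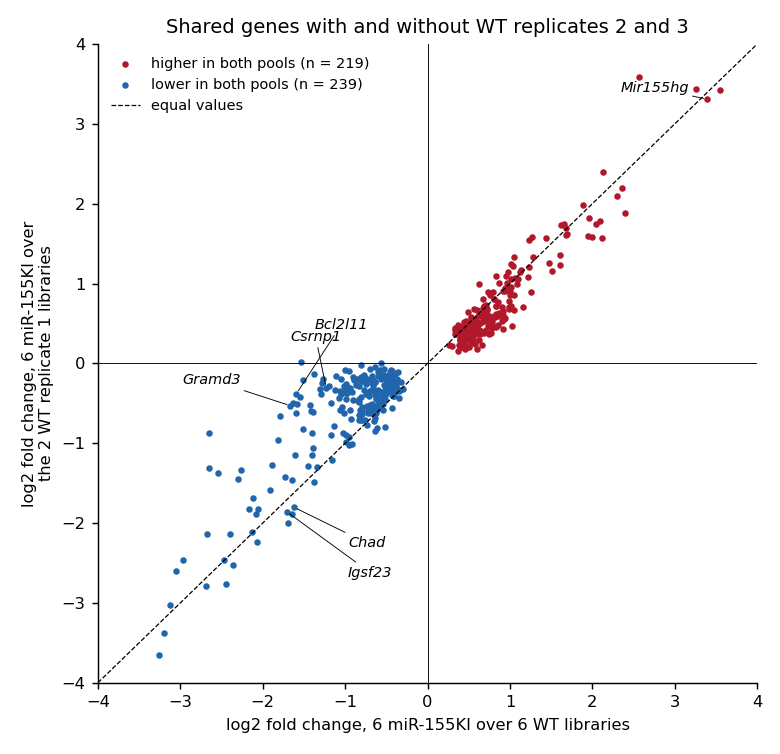
Log2 fold change of the shared genes with all 6 WT libraries as controls (x axis) and with the 2 WT replicate 1 libraries alone (y axis), for 219 higher and 239 lower genes, with the line of equal values dashed. Of the higher genes, 147 had at least 75% of their log2 fold change against WT replicate 1 and 16 had under 50%. For the lower genes these counts were 85 and 92. Many lower genes, such as *Csrnp1*, *Gramd3* and *Bcl2l11*, lie between the line and 0, while *Chad* and *Igsf23* lie on it or beyond.

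Among the lower genes that regulate transcription, *Nr1d1*, which encodes the circadian repressor REV-ERBα, was lower at both stages. Its levels were 35.1, 63.9 and 71.7 CPM in WT NK1.1- cells, 9.12, 10.4 and 13.2 CPM in miR-155KI NK1.1- cells, 9.97, 19.7 and 15.9 CPM in WT NK1.1+ cells, and 6.23, 4.45 and 6.94 CPM in miR-155KI NK1.1+ cells. The genotypes did not overlap in either pool, and WT replicate 1 was the lowest WT library in both. The log2 fold change was -1.89 (SE 0.25, edgeR adjusted p = 0.000809) and -1.27 in the WT replicate 1 contrast. *Nfil3*, a basic leucine zipper repressor that acts opposite to the clock activators and serves innate lymphocyte development, fell by 1.81 on the log2 scale (SE 0.28, edgeR adjusted p = 0.00458), with -0.95 in the WT replicate 1 contrast. *Runx2* (-1.61, SE 0.35), a Runt-domain transcription factor, *Klf4* (-1.39, SE 0.30), a zinc finger factor linked to quiescence, and *Csrnp1* (-1.23, SE 0.27), a nuclear protein first described as induced by AXIN1, were also lower with no overlap in either pool. The WT replicate 1 contrasts of *Runx2* and *Klf4* were -1.15 and -1.06. *Csrnp1* measured 259, 630 and 486 CPM in WT NK1.1- cells against 207, 242 and 183 CPM in miR-155KI NK1.1- cells, and 394, 1213 and 799 CPM in WT NK1.1+ cells against 291, 364 and 297 CPM in miR-155KI NK1.1+ cells. Its WT replicate 1 lay just above the miR-155KI libraries in each pool, and the WT replicate 1 contrast was -0.31.

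Cytokine and growth factor receptors formed another part of the lower genes. *Il4ra*, the receptor chain for IL-4 and IL-13, measured 42.9, 82.5 and 84.1 CPM in WT NK1.1- cells, 25.3, 23.3 and 30.7 CPM in miR-155KI NK1.1- cells, 138, 294 and 460 CPM in WT NK1.1+ cells, and 93.7, 117 and 115 CPM in miR-155KI NK1.1+ cells. The groups did not overlap, but WT replicate 1 was nearest to the miR-155KI libraries in both pools. The log2 fold change was -1.43 (SE 0.26, edgeR adjusted p = 0.0154), and -0.52 in the WT replicate 1 contrast. *Il12rb2*, the signaling chain of the IL-12 receptor, behaved otherwise with respect to WT replicate 1. It measured 22.2, 35.6 and 22.5 CPM in WT NK1.1- cells against 7.62, 13.5 and 13 CPM in miR-155KI NK1.1- cells, and 164, 171 and 179 CPM in WT NK1.1+ cells against 85.2, 83.6 and 119 CPM in miR-155KI NK1.1+ cells. The 3 WT libraries of NK1.1+ cells were close to each other and all above the miR-155KI ones, the log2 fold change was -1.03 (SE 0.16, edgeR adjusted p = 0.00382), and the WT replicate 1 contrast was -0.87. *Ifngr1*, the ligand-binding chain of the interferon-γ receptor, fell by 0.93 (SE 0.13, edgeR adjusted p = 0.00137), with -1.13 for the NK1.1- pool, -0.74 for the NK1.1+ pool and -0.70 in the WT replicate 1 contrast. *Fzd5*, a Wnt receptor, had a log2 fold change of -1.34 (SE 0.34), and its WT replicate 1 contrast was -1.29.

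Genes for matrix, membrane and trafficking proteins included several whose 3 WT libraries lay together. *Chad*, which encodes the leucine-rich matrix protein chondroadherin, measured 7.68, 9.04 and 6.19 CPM in WT NK1.1- cells, 3.14, 2.63 and 2.68 CPM in miR-155KI NK1.1- cells, 28.7, 20.7 and 19.97 CPM in WT NK1.1+ cells, and 7.63, 6.61 and 5.74 CPM in miR-155KI NK1.1+ cells. It was higher in NK1.1+ than in NK1.1- cells of each genotype, and lower in miR-155KI cells of each pool without overlap. The log2 fold change was -1.62 (SE 0.20, edgeR adjusted p = 0.000576), with -1.43 and -1.79 in the 2 pools and -1.80 in the WT replicate 1 contrast. *Igsf23*, a gene of the immunoglobulin superfamily, fell by 1.71 (SE 0.22, edgeR adjusted p = 0.000782) and by 1.86 in the WT replicate 1 contrast. *Sdcbp*, which encodes the PDZ adaptor syntenin-1, ran from 194 to 288 CPM in the WT libraries and from 108 to 192 CPM in the miR-155KI libraries, with a log2 fold change of -0.80 (SE 0.10, edgeR adjusted p = 0.000576) and a WT replicate 1 contrast of -0.71. In each pool its miR-155KI libraries all lay below the WT libraries. *Gramd3* (-1.66, SE 0.34), which encodes a GRAM domain protein, and *Rab4a* (-1.29, SE 0.23), a small GTPase of endosome recycling, had WT replicate 1 contrasts of -0.53 and -0.38. The remaining genes among the 15 deepest falls were *Fam83a* (-2.17), the tyrosine kinase gene *Src* (-1.51), the keratin gene *Krt83* (-1.41) and *Metrnl* (-1.39), with WT replicate 1 contrasts between -1.83 and -0.59.

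**Figure D3:**
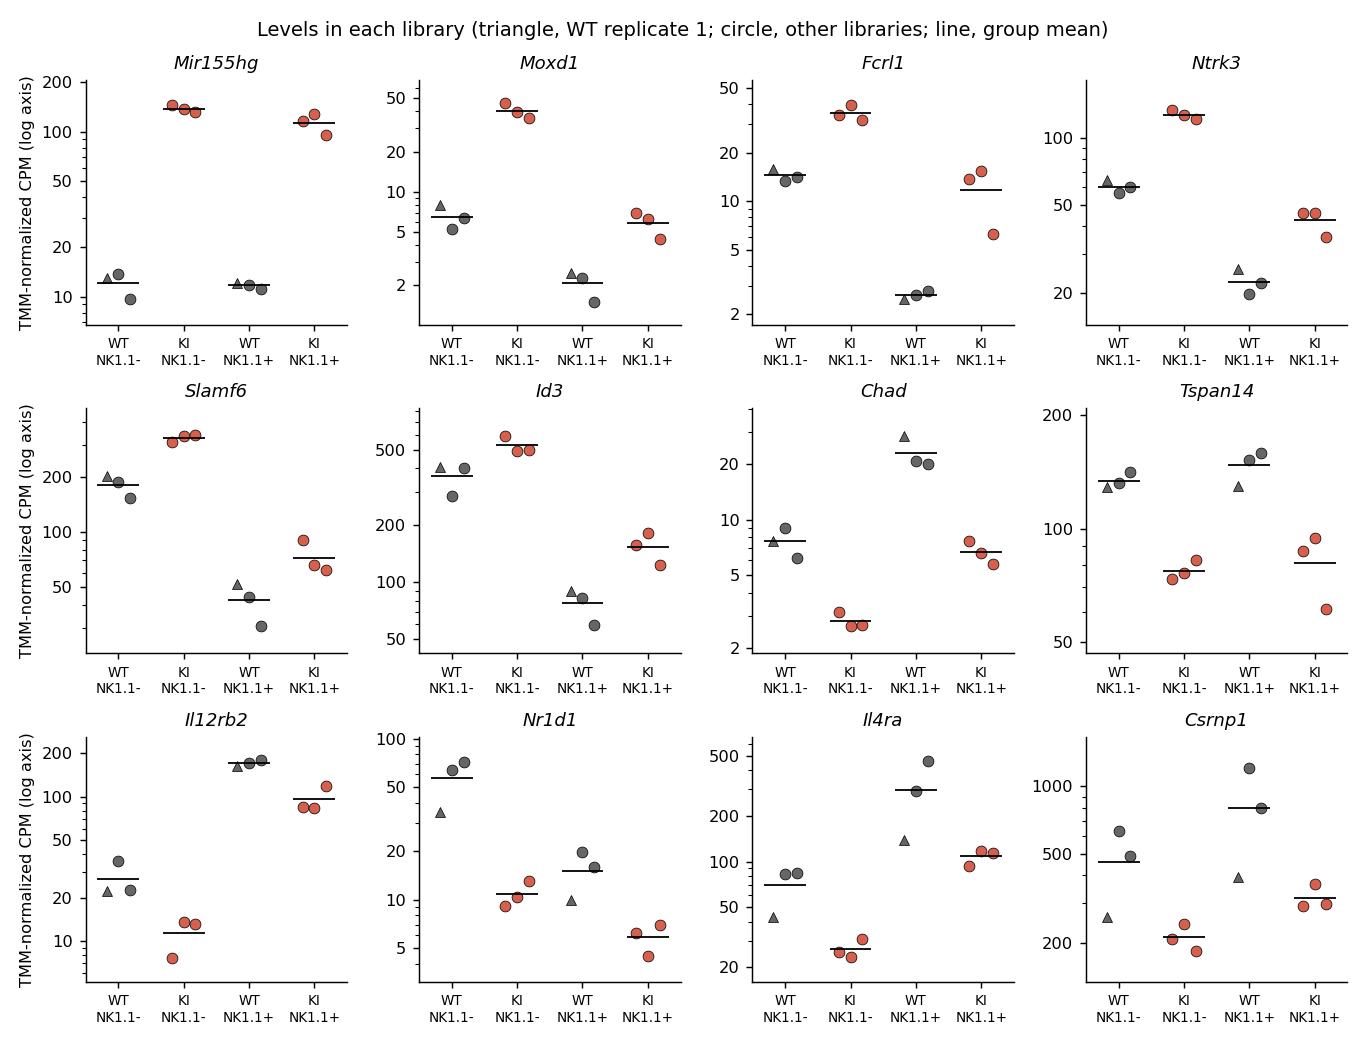
Level of 12 shared genes in each library, in TMM-normalized CPM on a log axis, by group (WT in grey, miR-155KI in red), with a line at the mean of the 3 libraries of a group and a triangle for WT replicate 1. The genotypes do not overlap in either pool, and the triangles of *Nr1d1*, *Il4ra* and *Csrnp1* lie between the other WT libraries and the miR-155KI libraries, whereas those of *Mir155hg*, *Fcrl1*, *Chad* and *Il12rb2* lie with or close to the other WT libraries.

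Apart from *Mir155hg*, the largest rises were in enzymes, receptors and secreted proteins. *Moxd1*, which encodes a copper monooxygenase of the dopamine β-hydroxylase family, measured 7.96, 5.26 and 6.36 CPM in WT NK1.1- cells, 46.5, 39.3 and 35.4 CPM in miR-155KI NK1.1- cells, 2.48, 2.28 and 1.5 CPM in WT NK1.1+ cells, and 6.90, 6.26 and 4.42 CPM in miR-155KI NK1.1+ cells. No miR-155KI library overlapped a WT library of its pool. The log2 fold change was 2.10 (SE 0.25, edgeR adjusted p = 0.000487), with 2.63 for the NK1.1- pool, 1.49 for the NK1.1+ pool and 1.78 in the WT replicate 1 contrast. *Gh*, the growth hormone gene, rose by 3.55 (SE 0.65, edgeR adjusted p = 0.0111), but its NK1.1+ values of 27.3, 2.11 and 1.07 CPM in miR-155KI cells, against 0.878, 0.525 and 0.601 CPM in WT cells, were uneven. Its NK1.1- values of 5.05, 5.11 and 4.98 CPM in miR-155KI cells, against 0.489, 0.458 and 0.725 CPM in WT cells, were close to each other. The rise of *Gh* in NK1.1+ cells thus leaned on replicate 1. *Prg4* (2.04, SE 0.38), the proteoglycan lubricin, *Pla2g7* (1.95, SE 0.34), which hydrolyses platelet-activating factor, and *Lpcat2* (1.61, SE 0.22), which makes it, were higher in both pools with no overlap. *Napsa* (1.48, SE 0.23), an aspartic protease of the lysosome, and *Mgst2* (0.91, SE 0.11), a glutathione S-transferase of leukotriene metabolism, were higher too. Their WT replicate 1 contrasts lay between 0.65 and 1.82.

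*Ntrk3*, the neurotrophin-3 receptor, measured 64.2, 56.4 and 59.7 CPM in WT NK1.1- cells against 132, 127 and 121 CPM in miR-155KI NK1.1- cells, and 25.6, 19.9 and 22.3 CPM in WT NK1.1+ cells against 46.0, 45.8 and 35.8 CPM in miR-155KI NK1.1+ cells. The libraries of a group lay close together and the genotypes did not overlap, and the log2 fold change was 1.00 (SE 0.10, edgeR adjusted p = 0.00012), with 0.85 in the WT replicate 1 contrast. *Nrgn*, the calmodulin-binding protein neurogranin (1.22, SE 0.16), *Nsg2*, an endosomal protein of neurons (1.1, SE 0.13), *Akap6*, a kinase anchor of the nuclear envelope (1.13, SE 0.16), and *Gabrr2*, a subunit of a GABA receptor (1.06, SE 0.17), rose with no overlap in either pool. Their WT replicate 1 contrasts were 1.08, 1.06, 1.17 and 1.07. *Tns4*, a focal adhesion adaptor, rose by 1.08 (SE 0.22, edgeR adjusted p = 0.0133), and its WT replicate 1 contrast was 0.99. *Fcrl1*, an Fc receptor-like protein known from B cells, measured 15.8, 13.4 and 14.2 CPM in WT NK1.1- cells against 34.1, 39.3 and 31.9 CPM in miR-155KI NK1.1- cells, and 2.48, 2.63 and 2.80 CPM in WT NK1.1+ cells against 13.7, 15.4 and 6.31 CPM in miR-155KI NK1.1+ cells. Its log2 fold change was 1.70 (SE 0.23, edgeR adjusted p = 0.00102), with 1.28 for the NK1.1- pool, 2.16 for the NK1.1+ pool and 1.62 in the WT replicate 1 contrast. The 12 B cell markers had no called member and a median log2 fold change of -0.23, with -0.72 for the NK1.1- and 0.27 for the NK1.1+ pool. Whether B cell RNA had a part in the rise of *Fcrl1* was not tested.

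Seed matches to miR-155-5p were held by a larger share of the lower genes. Of 12347 tested genes with an annotated 3′ UTR, 440 (3.56%) held the 8-base match AGCATTAA on the transcribed strand. It was held by 32 of 235 shared lower genes with a 3′ UTR (13.6%) and by 3 of 192 shared higher genes (1.56%), which were *Ntrk3*, *Akap6* and *Rbm26*. The 7-base match AGCATTA, which includes the 8-base one, was held by 23.4% of the lower genes, 7.29% of the higher genes and 9.75% of all tested. The lower genes had longer 3′ UTRs, with a median of 1541 bases against 1150 over all tested, so the shares were also taken by length. Under 1000 bases, 2 of 87 lower genes (2.3%) held the 8-base match against 1.13% of all tested. Between 1000 and 2000 bases the shares were 11 of 58 (19%) and 3.14%, and above 2000 bases 19 of 90 (21.1%) and 7.61%. Seen from the sites, 7.27% of the 440 genes with a match were called lower, against 1.7% of the 11907 without. Their median log2 fold change was -0.08 against 0.02, so most genes with a match moved little. All 32 lower genes with a match kept their sign in both pools in the WT replicate 1 contrast, as did 179 of the 203 without one. The 203 may include genes not tested in that contrast, and the sign was part of how all were chosen. The median fold change shrank in both sets, from -0.63 to -0.36 with a match and from -0.80 to -0.40 without. A match is a description of the sequence and does not show that the site is used. For *D10Wsu102e*, 1 of the 32, the annotated 3′ UTR spans 122583 bases.

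**Figure D4:**
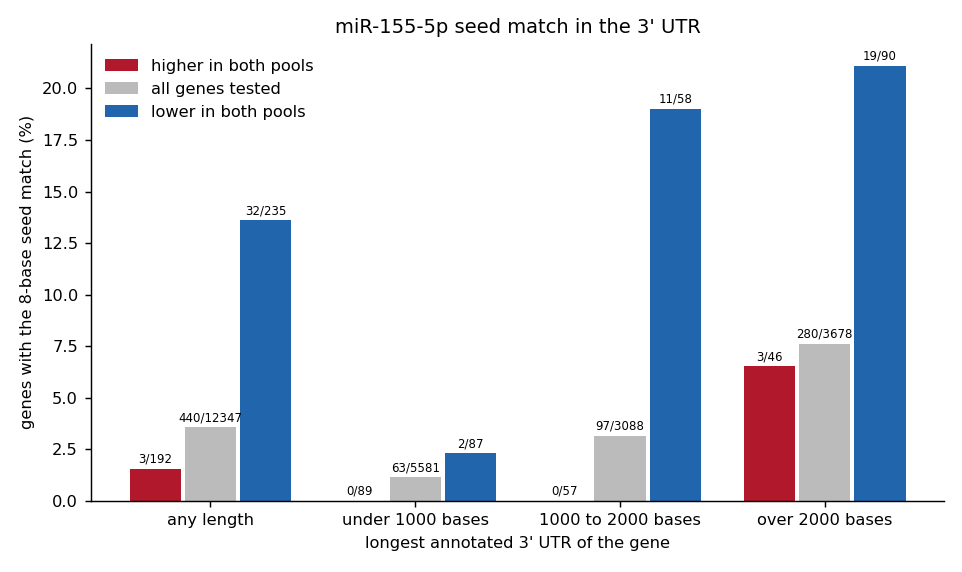
Percent of genes with the 8-base miR-155-5p seed match in the 3′ UTR (y axis) by class of 3′ UTR length (x axis), for shared higher genes, all tested genes and shared lower genes, with the counts above the bars. The shared lower genes have the tallest bar in each class, at 13.6% over any length, and 3 higher genes hold the match.

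The 9 genes whose windows are printed above were all lower in both pools. *Tspan14*, a tetraspanin that carries the protease ADAM10 to the surface, measured 129, 132 and 141 CPM in WT NK1.1- cells, 73.4, 76.3 and 82.8 CPM in miR-155KI NK1.1- cells, 130, 152 and 159 CPM in WT NK1.1+ cells, and 87.0, 94.5 and 61.3 CPM in miR-155KI NK1.1+ cells. Every miR-155KI library lay below every WT library. The log2 fold change was -0.83 (SE 0.10, edgeR adjusted p = 0.000576), with -0.79 and -0.86 in the pools and -0.71 in the WT replicate 1 contrast. *Tab2*, the adaptor that couples ubiquitin chains to the kinase TAK1, measured 37.1, 44.6 and 33.8 CPM in WT NK1.1- cells against 25.4, 23.4 and 25.5 CPM in miR-155KI NK1.1- cells, and 48.4, 51.5 and 56.6 CPM in WT NK1.1+ cells against 26.6, 39.1 and 28.9 CPM in miR-155KI NK1.1+ cells. The pools again did not overlap by genotype, with a log2 fold change of -0.68 (SE 0.12, edgeR adjusted p = 0.00863) and a WT replicate 1 contrast of -0.60. *Mef2a*, a MADS-box transcription factor, fell by 0.69 (SE 0.11, edgeR adjusted p = 0.00406), with -0.56 in the WT replicate 1 contrast. *Rell1* had a log2 fold change of -1.14 and of -0.78 in the WT replicate 1 contrast. The RNA-binding protein gene *Carhsp1* (-0.75, and -0.39 in that contrast), *Wdr45b* of the autophagy machinery (-0.64 and -0.23), *Nfe2l2*, the oxidative stress factor NRF2 (-0.62 and -0.40), and *Tomm20*, the mitochondrial import receptor (-0.42 and -0.31), were lower too. *Jarid2*, which recruits the Polycomb complex PRC2, measured 132, 173 and 170 CPM in WT NK1.1- cells, 136, 107 and 109 CPM in miR-155KI NK1.1- cells, 97.0, 149 and 157 CPM in WT NK1.1+ cells, and 87.5, 82.8 and 78.4 CPM in miR-155KI NK1.1+ cells. Its genotypes overlapped in NK1.1- cells, with a log2 fold change of -0.56 (SE 0.12, edgeR adjusted p = 0.023) and -0.20 in the WT replicate 1 contrast.

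Of 34 tested genes that have been widely reported as miR-155 targets, 7 were lower and none was higher, beside 1.7% and 1.52% of all genes tested. The median log2 fold change of the 34 was -0.32 against 0.02 over all genes, and -0.15 in the WT replicate 1 contrast. The 7 were *Tspan14*, *Tab2*, *Jarid2*, *Bach1*, *Inpp5d*, *Ets1* and *Ifngr1*, of which only *Ifngr1* lacks the 8-base match. *Bach1*, the heme-regulated repressor, was low in these cells. It had 4.19, 12.6 and 9.76 CPM in WT NK1.1- cells against 4.43, 3.54 and 1.87 CPM in miR-155KI NK1.1- cells, and 12.6, 11.4 and 15.6 CPM in WT NK1.1+ cells against 3.32, 7.84 and 4.23 CPM in miR-155KI NK1.1+ cells, a log2 fold change of -1.40 (SE 0.31, edgeR adjusted p = 0.0252) and a WT replicate 1 contrast of -0.87. Its genotypes overlapped in NK1.1- cells through WT replicate 1. *Inpp5d*, the SHIP1 phosphatase, fell by 0.38 (SE 0.09, edgeR adjusted p = 0.0314) and *Ets1*, a transcription factor of lymphocyte development, by 0.34 (SE 0.07, edgeR adjusted p = 0.022), both with no overlap in either pool and with WT replicate 1 contrasts of -0.25 and -0.34. With same-numbered libraries summed, 2 of the 7 were still called. Other well-known targets did not pass, among them *Socs1*, the inhibitor of JAK kinases (-0.11, edgeR adjusted p = 0.628), and *Peli1*, a ubiquitin ligase (-0.33, edgeR adjusted p = 0.13). Of the 22 core targets that the study picked, 9 were lower and none higher, with a median of -0.50 and of -0.24 in the WT replicate 1 contrast. The study chose that list on these samples. The list of 34, like the other gene lists, was written with earlier results of these data known. The direction of neither list is therefore independent evidence. Besides *Tab2*, *Jarid2* and *Mef2a* the 9 were *Gabarapl1* of the autophagosome (-1.07, and -0.58 in the WT replicate 1 contrast), *Cacul1* (-0.66 and -0.28), the helicase gene *Dhx40* (-0.66 and -0.33), *Wbp1l* (-0.58 and -0.47), the methyl-DNA reader *Zbtb38* (-0.57 and -0.16) and *Lrrc59* of the endoplasmic reticulum (-0.52 and -0.37). With same-numbered libraries summed, 2 of the 9 were still called. *Rictor*, the defining subunit of mTORC2, measured 36.3, 45.1 and 34.8 CPM in WT NK1.1- cells against 26.6, 28.4 and 31.5 CPM in miR-155KI NK1.1- cells, and 34.4, 49.4 and 54.7 CPM in WT NK1.1+ cells against 38.1, 33 and 36 CPM in miR-155KI NK1.1+ cells. It overlapped in NK1.1+ cells and did not pass (-0.40, SE 0.13, edgeR adjusted p = 0.0941).

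The genes of the *i*NKT programs moved in part of their members, beside 1.52% of all genes tested called higher and 1.7% called lower. Of 25 *i*NKT1 and NK-like effector genes, 4 were lower and none higher, with a median of -0.43 and of -0.47 in the WT replicate 1 contrast. Beside *Il12rb2* and *Ifngr1* they were the chemokine genes *Ccl5* (-0.76, SE 0.15, edgeR adjusted p = 0.0148) and *Xcl1* (-0.62, SE 0.14, edgeR adjusted p = 0.0252), with WT replicate 1 contrasts of -0.71 and -0.53. With same-numbered libraries summed, 1 of the 4 was still called. *Ccl5* measured 312, 337 and 281 CPM in WT NK1.1+ cells against 119, 247 and 229 CPM in miR-155KI NK1.1+ cells, and 39.0, 50.2 and 38.0 CPM in WT NK1.1- cells against 19.4, 23.9 and 25.4 CPM in miR-155KI NK1.1- cells. Its 2 genotypes did not overlap, though miR-155KI NK1.1+ replicate 1 stood below the other 2. The master regulator *Tbx21* (-0.64, edgeR adjusted p = 0.151), *Ifng* (-0.60, 0.344) and *Gzmb* (-0.61, 0.053) did not pass. Of 20 *i*NKT17 genes, 4 were lower and none higher, and 2 of the 4 were called with same-numbered libraries summed. The median was -1.10 and -1.16 in the WT replicate 1 contrast, with -2.02 for the NK1.1- and -0.20 for the NK1.1+ pool. *Il23r*, *Il17a* and *Sdc1* were under 7 CPM in NK1.1+ cells of both genotypes, so their shared call came mainly from NK1.1- cells. *Sdc1*, a surface marker of *i*NKT17 cells, measured 18.7, 33.3 and 32.2 CPM in WT NK1.1- cells against 3.86, 2.03 and 4.92 CPM in miR-155KI NK1.1- cells, but 5.47, 6.25 and 3.10 CPM against 3.52, 1.58 and 1.58 CPM in NK1.1+ cells, where the genotypes overlapped. The WT replicate 1 contrasts of *Il23r*, *Il17a* and *Sdc1* were -2.76, -1.34 and -1.89, beside -2.45, -2.27 and -2.09 over all libraries. *Rora*, a nuclear receptor of type 17 cells, fell by 1.05 (SE 0.20, edgeR adjusted p = 0.0114) with a WT replicate 1 contrast of -0.38.

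Of 20 *i*NKT2 genes, 6 were higher and 2 lower, with a median of 0.21 and of 0.34 in the WT replicate 1 contrast, and 6 of the 8 were called with same-numbered libraries summed. The higher ones are receptors and early transcription factors, and the 2 lower ones are *Il4ra* and *Nfil3*. *Slamf6*, the homotypic receptor that supports *i*NKT selection, measured 202, 187 and 153 CPM in WT NK1.1- cells, 309, 334 and 336 CPM in miR-155KI NK1.1- cells, 52.1, 44.2 and 30.7 CPM in WT NK1.1+ cells, and 89.9, 65.7 and 61.9 CPM in miR-155KI NK1.1+ cells. The groups did not overlap, and the log2 fold change was 0.82 (SE 0.13, edgeR adjusted p = 0.00334). *Il17rb*, the IL-25 receptor, rose by 0.78 (SE 0.13, edgeR adjusted p = 0.00556), *Izumo1r*, the folate receptor FR4, by 0.57 (SE 0.09, edgeR adjusted p = 0.00398) and *Pdcd1*, the receptor PD-1, by 0.67 (SE 0.12, edgeR adjusted p = 0.0107), the last with 0.99 for the NK1.1- and 0.34 for the NK1.1+ pool. The WT replicate 1 contrasts of *Slamf6*, *Il17rb*, *Izumo1r* and *Pdcd1* were 0.58, 0.53, 0.43 and 0.69. The lineage regulators *Zbtb16* (0.06), *Gata3* (-0.02) and the cytokine gene *Il4* (0.19) did not pass. Among 18 genes of immature stage 0 and 1 cells, 3 were higher and none lower, with a median of 0.08 and of 0.01 in the WT replicate 1 contrast. These were *Id3*, the inhibitor of E proteins, at 0.76 (SE 0.14, edgeR adjusted p = 0.00877), *Egr2*, a factor induced by the T cell receptor, at 0.70 (SE 0.16, edgeR adjusted p = 0.0281), and *Lef1*, the Wnt-pathway factor, at 0.49 (SE 0.10, edgeR adjusted p = 0.0201). Their WT replicate 1 contrasts were 0.57, 0.42 and 0.43. *Egr2* and *Lef1* are on the *i*NKT2 list as well. *Id3* measured 404, 284 and 398 CPM in WT NK1.1- cells against 589, 491 and 499 CPM in miR-155KI NK1.1- cells, and 90.2, 82.8 and 59.2 CPM in WT NK1.1+ cells against 157, 181 and 123 CPM in miR-155KI NK1.1+ cells. Other immature-stage genes did not follow, with *Egr1* at -0.55, *Nr4a1* at -1.54 and *Cd69* at -0.44, none of which passed.

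**Figure D5:**
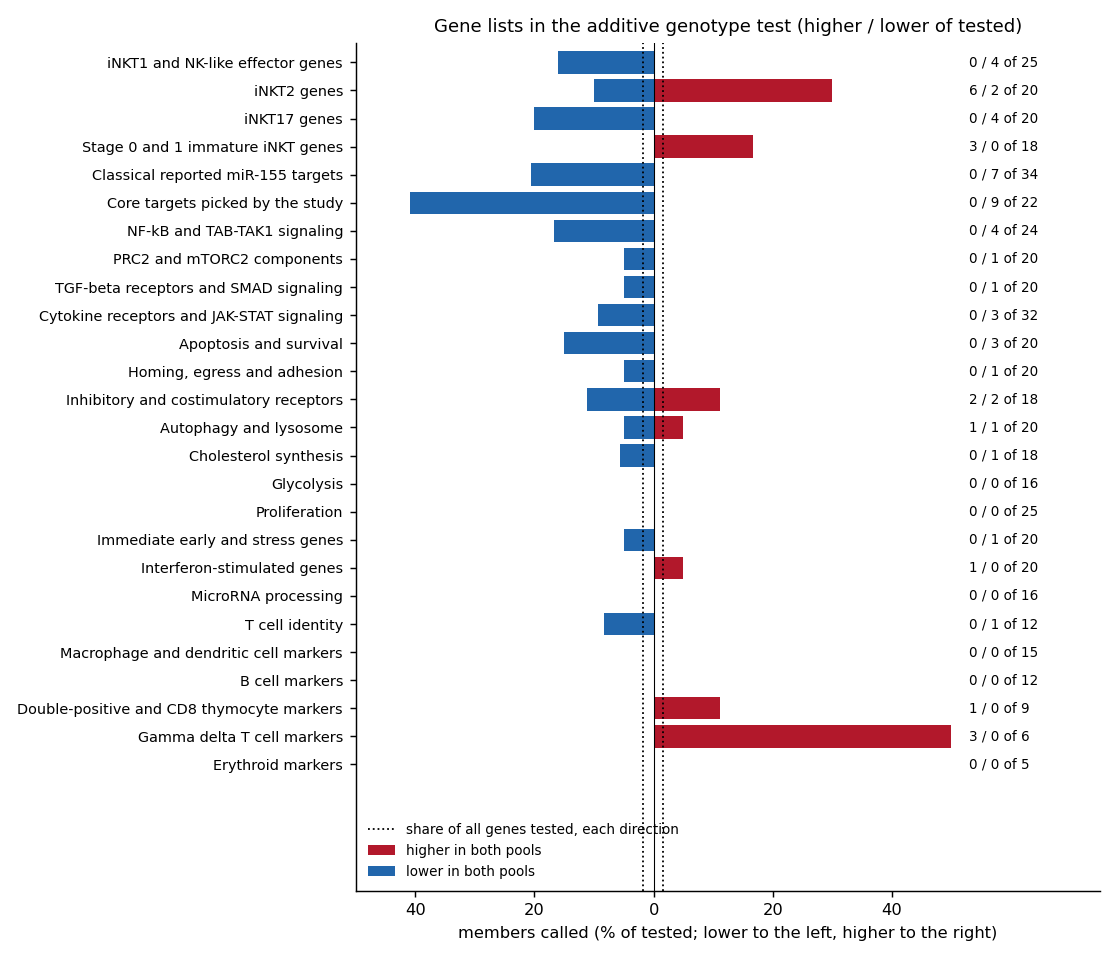
Share of the tested members of 26 gene lists that were called higher (right) or lower (left) in miR-155KI cells in both pools, in percent, with counts at the right and dotted lines at the shares of all genes tested, 1.52% higher and 1.7% lower. The 2 miR-155 target lists, the *i*NKT1 and *i*NKT17 lists and the NF-kB list hold lower genes alone, and the *i*NKT2 list holds 6 higher and 2 lower genes.

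Of 24 genes of NF-kB and TAB-TAK1 signaling, 4 were lower and none higher, with a median of -0.44. Besides *Tab2* these were *Rel* (-1.28, SE 0.30, edgeR adjusted p = 0.0477) and *Relb* (-0.89, SE 0.19, edgeR adjusted p = 0.0275), both NF-kB subunits, and the inhibitor *Nfkbib* (-0.57, SE 0.14, edgeR adjusted p = 0.0417). *Rel* measured 57.4, 180 and 112 CPM in WT NK1.1- cells against 45.1, 69.6 and 38.0 CPM in miR-155KI NK1.1- cells, and 82.8, 217 and 217 CPM in WT NK1.1+ cells against 66.3, 68.5 and 65.8 CPM in miR-155KI NK1.1+ cells. WT replicate 1 was the lowest WT library in both pools. In the WT replicate 1 contrast the list's median was -0.07, and *Rel*, *Relb* and *Nfkbib* had -0.25, -0.20 and -0.08, while *Tab2* had -0.60. With same-numbered libraries summed, 1 of the 4 was still called. Among 20 TGF-β receptor and SMAD genes 1 was lower, the inhibitory *Smad7* (-0.87, SE 0.20, edgeR adjusted p = 0.0282, and -0.27 in the WT replicate 1 contrast), and the median moved from -0.26 to -0.08 in the WT replicate 1 contrast. Of 20 PRC2 and mTORC2 genes only *Jarid2* was lower. Of 32 cytokine receptor and JAK-STAT genes 3 were lower, *Il4ra*, *Il12rb2* and *Ifngr1*, and the median was -0.18 and -0.11 in the WT replicate 1 contrast. Over all genes tested, 1.7% were called lower, so 1 lower gene in a list of 20 is not read as a result about the list.

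Among 20 genes of apoptosis and survival, 3 were lower, among them the pro-apoptotic *Bcl2l11* (-1.59, SE 0.36, edgeR adjusted p = 0.0442) and the survival gene *Bcl2a1b* (-0.51, SE 0.10, edgeR adjusted p = 0.0114), whose counts may be split with near-identical copies. *Bcl2l11*, which also holds the 8-base match, measured 27.9, 69.8 and 61.0 CPM in WT NK1.1- cells against 18.1, 29.3 and 18.7 CPM in miR-155KI NK1.1- cells, and 64.1, 188 and 288 CPM in WT NK1.1+ cells against 41.7, 44.6 and 58.2 CPM in miR-155KI NK1.1+ cells. WT replicate 1 overlapped the miR-155KI libraries in NK1.1- cells, and the WT replicate 1 contrast was -0.38, while that of *Bcl2a1b* was -0.40. The list's median was 0.11 and 0.04 in that contrast. Of 18 inhibitory and costimulatory receptors, *Pdcd1* and *Slamf6* were higher, and *Tigit* (-1.13, SE 0.28) and *Cd226* (-0.62, SE 0.14), receptors that share ligands, were lower. The WT replicate 1 contrast was -0.33 for *Tigit* and -0.81 for *Cd226*. Homing genes gave 1 of 20, *Cxcr4*, the receptor for CXCL12 (-1.11, SE 0.25, edgeR adjusted p = 0.0252), with -0.16 in the WT replicate 1 contrast. Autophagy and lysosome genes gave *Ctsb* higher (0.44) and *Gabarapl1* lower of 20, cholesterol synthesis *Insig1* lower (-0.81, and -0.03 in the WT replicate 1 contrast) of 18, immediate early and stress genes *Junb* lower (-0.67, and -0.23 in that contrast) of 20, and interferon-stimulated genes *Oasl2* higher (0.56) of 20. None of 16 glycolysis, 25 proliferation or 16 microRNA processing genes was called. Over all genes tested, 1.52% were called higher and 1.7% lower. At those shares, 1 call or none in lists this short is not read as a result about the list.

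Called markers of other cells were 1 double-positive and 3 γδ T cell markers, described below, beside 3.22% of all genes tested. At that share, lists this short may hold no called gene. None of 15 macrophage and dendritic cell markers, 12 B cell markers or 5 erythroid markers was called, although the median of the macrophage and dendritic list was 3.39 for the NK1.1+ and -0.33 for the NK1.1- pool. Single libraries stood apart in these markers, whose sums also include listed genes that were counted but not tested. Summed erythroid markers were 155, 183.4, 315.7 and 1216 CPM in replicate 3 of the 4 groups, against 19.01 to 37.74 CPM in the other 8 libraries. Summed B cell markers were 900.1 CPM in WT NK1.1- replicate 1, against 94.53 to 337.5 CPM elsewhere, and summed double-positive and CD8 markers were 332.4 CPM in miR-155KI NK1.1+ replicate 1, against 45.13 to 128.1 CPM elsewhere. Their part in the results was not tested. Leaving out miR-155KI NK1.1+ replicate 1 gave 347 calls, 277 of them among the 464. In both pools 463 of the 464 kept their sign, by which they had been chosen. Of 9 double-positive and CD8 thymocyte markers *Cd1d1*, the lipid-presenting molecule, was higher (0.73, SE 0.19, edgeR adjusted p = 0.0445). Of 6 γδ T cell markers 3 were higher, *Tcrg-C4* (0.78, SE 0.13, edgeR adjusted p = 0.00556), *Tcrg-C2* (0.66, SE 0.16, edgeR adjusted p = 0.0391) and *Trgv2* (0.60, SE 0.15, edgeR adjusted p = 0.042). The γ chain segments are near-identical in part, so their counts are uncertain, and their WT replicate 1 contrasts were 0.49, 0.24 and 0.18. The summed γδ markers did not overlap in NK1.1- cells, with 446.6 to 697.6 CPM in WT and 801.3 to 1119 CPM in miR-155KI libraries, but did in NK1.1+ cells, with 483.7 to 858.4 and 806.6 to 942 CPM, through WT replicate 1. The list's median was 0.72 and 0.27 in the WT replicate 1 contrast. Of 12 T cell identity genes, *Thy1* was lower (-0.42, SE 0.10, edgeR adjusted p = 0.0366).

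The shared genes with the smallest interaction p had unlike estimates in the pools, though none was called. *Arhgap24*, an inhibitor of the GTPase Rac, measured 24.2, 16.6 and 19.9 CPM in WT NK1.1- cells against 105, 94.6 and 88.3 CPM in miR-155KI NK1.1- cells, but 6.15, 5.37 and 3.95 CPM against 7.89, 9.71 and 6.62 CPM in NK1.1+ cells. It was higher without overlap in both, by 2.25 and 0.65 on the log2 scale (edgeR interaction adjusted p = 0.0742). *Zfp683*, which encodes the effector T cell factor HOBIT, measured 63.0, 57.1 and 53.5 CPM in WT NK1.1- cells against 22.9, 25.6 and 27.1 CPM in miR-155KI NK1.1- cells, and 209, 171 and 172 CPM against 152, 178 and 179 CPM in NK1.1+ cells. Its log2 fold change was -1.20 in NK1.1- cells, whereas in NK1.1+ cells, where the genotypes overlapped, it was -0.11 (edgeR interaction adjusted p = 0.0527). *Lgals3*, the lectin galectin-3, had -1.08 and -0.17 in the 2 pools, *2600014E21Rik* 1.57 and 0.48, and *Tsc22d1*, a leucine zipper regulator, 0.46 and 1.56. The interaction adjusted p of these 3 lay between 0.192 and 0.323, so the difference between pools was not called for any of the 5.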

How the data were processed

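RNA-seq was run on 12 libraries of total RNA from sorted *i*NKT cells of the thymus. Per the labels, cDNA was made with the SMART-Seq v4 kit, while the study's methods name a TruSeq kit, and the submitters' processing notes name bcl2fastq 2.17.1.14 and GRCm38/mm10. The aligner and counter are not given in the sources used here, and strand use is not stated, so antisense partners cannot be told apart. The study's methods speak of pooled replicates. How many mice a library holds is not stated.

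The authors deposited 1 table of raw counts per gene and 1 of normalized values (CPM-like signal, the counts of a library times 1 factor). The count table held 48709 names, 27 of them turned into dates by a spreadsheet, which held 0.249% of all counts. All 12 columns matched their labels. Counts were filtered with filterByExpr by group, leaving 14401 genes, scaled by TMM and tested with edgeR 4.0.16 in R 4.3.3 (quasi-likelihood test, robust option, pool and genotype as terms, threshold 0.05 after Benjamini-Hochberg adjustment over all genes tested, two-sided). Fold changes within a pool and the interaction came from a fit with 4 groups. An SE is the log2 fold change over the square root of its F value. Tested on simulated data for this comparison with 14401 genes, the fit called 38.8%, 65.7% and 77.3% of genes changed 1.5-, 2- and 4-fold, with 4 false calls. The simulated libraries were independent. They held neither the correlation of same-numbered libraries nor the difference between WT replicate 1 and the other WT libraries, so false calls from these were not measured. Depth ran from 12819476 to 20518257 counts, and the common biological coefficient of variation was 0.336.

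Seed matches were searched in GENCODE M21 3′ UTRs of 21020 genes on the transcribed strand, with the seed read from RefSeq's miR-155-5p (GRCm38.p6). Gene positions came from GENCODE M21, which held 455 of the 464 genes by symbol. Named genes were the 15 largest rises and falls and the 10 smallest p among called genes with a group mean of at least 10 CPM and no overlap in either pool, without unnamed predicted genes, together with *Mir155hg*, the study's core targets, up to 4 members per list by p, and up to 5 called genes by interaction p. *Carhsp1*, *Rell1*, *Lpin1*, *Wdr45b*, *Nfe2l2*, *Tomm20*, *D10Wsu102e*, *Rbm26*, the genes called with the covariate, the list members that did not pass and the remaining lower genes of the target lists were named after their values were seen. The members and the 28 lists were chosen with earlier results of these data known. No set test was run. Alternatives covered DESeq2 1.42.0, limma 3.58.1, other filters and scalings, replicate blocks, left-out libraries and the Y to *Xist* ratio. Some results that the naming rule would give are not reported here.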

Additional observations from a re-analysis of the deposited data

Results flagged for a closer look

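Outside the shared genes, edgeR's interaction test called 4 of 14401 genes (0.0278%) whose genotype effect differed between the pools. At an unadjusted interaction p under 0.05 there were 1167 (8.1%). *Sostdc1*, a secreted antagonist of BMP and Wnt signals, rose from 3.42, 2.57 and 2.73 CPM in WT to 36.4, 46.6 and 56.7 CPM in miR-155KI NK1.1- cells, while NK1.1+ cells of both genotypes lay between 1.53 and 2.71 CPM. Its log2 fold changes were 4 and 0.03 (interaction adjusted p = 0.000789, edgeR). *Csf1*, the macrophage growth factor, had 44.8 to 51.2 CPM in WT and 115.7 to 171.4 CPM in miR-155KI NK1.1- cells. Its log2 fold changes were 1.67 there and -0.31 among NK1.1+ libraries (interaction adjusted p = 0.00547, edgeR). *Aqp11*, a water channel, moved in opposite directions, with -1.52 for the NK1.1- and 1.47 for the NK1.1+ pool (interaction adjusted p = 0.00577, edgeR). *Parm1*, a membrane mucin-like protein, had 1.91 and -1.19 (interaction adjusted p = 0.0438, edgeR), with under 3 CPM in all NK1.1+ libraries. None of the 4 passed the additive test.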

How the results depend on the processing

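The sign of the shared effect, which was part of how the genes were chosen, held under more settings than the calls. Counts of called, higher, lower and interaction genes were 464, 219, 245 and 4 in the test reported. They were 1096, 507, 588 and 124 with DESeq2, which called 449 of the 464. Same-numbered libraries summed over the pools gave 119, 77 and 35, and a duplicateCorrelation block gave 299, 165, 128 and 2. The Y to *Xist* covariate gave 8, 5 and 3, and WT replicate 1 as the only control gave 2, 2, 0 and 1. Interaction calls were 1 with limma-voom, 7 with RLE scaling, 162 without a filter on low counts and 10 with at least 10 counts in every library. With a replicate block there were 531, 220, 311 and 3. The replicate numbers were not taken as pairs: deviations of same-numbered libraries of a genotype correlated between 0.061 and 0.293 across the pools, 11 of 12 libraries best with their own number, and between -0.088 and 0.116 across genotypes. Leaving out single libraries or both libraries of a number gave 28 to 1122 called, 15 to 459 higher, 13 to 663 lower and 1 to 46 interaction genes. Singly, the count fell to between 105 and 199 without any of WT replicates 2 and 3 or any miR-155KI NK1.1- library and rose to 769 without WT NK1.1+ replicate 1. Without the A, seed matches were in 23.4% of lower and 7.29% of higher genes. *Gata3*, near 0 and not called, changed sign at 0.013 without a filter, 0.008 for both pseudocounts, 0.006 for summed libraries, 0.091 with the covariate, 0.076 against WT replicate 1 and ran from -0.057 to 0.033 with libraries left out, where *Zbtb16*, not called either, ran from -0.007 to 0.171. Of the 108 genes followed through the alternatives, no other changed sign. Some genes that the naming rule gives but that are not described above did, none of them called. Among them were the core targets *Vps18* (-0.31, and 0.29 in the WT replicate 1 contrast), *Map3k14* (-0.91 and 0.04) and *Dyrk2* (-0.22 and 0.16). For the 108 genes, 2499 of the alternative values kept their side of the threshold and 911 kept their sign but no longer passed. The cause of these changes was not tested. At this depth and spread, changes of 1.5-fold are called in part only.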
